A study of Mus musculus with 14 samples.

Results

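The chemokine ligands measured here are the 32 genes whose array symbols name a Ccl or Cxcl ligand with a number, together with Cx3cl1 and Xcl1, out of 18193 genes on the array. Where several probe sets measured a gene, the one with the highest average in the 14 arrays was used. Expression is the log2 value deposited by the authors, so a difference of 1 is a doubling. Of the 32 ligands, 21 lay above the bottom of the scale and 11 lay near it.

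The samples were 3T3-L1 preadipocytes, an established mouse line that becomes adipocytes when given differentiation medium. All cells had been transduced with lentivirus, which carried a scrambled siRNA sequence in the control groups and a TP53INP2 siRNA sequence in the knockdown groups. TP53INP2 is a protein known for its part in autophagosome formation and as a coactivator of thyroid hormone receptors. Day 0 cells were preadipocytes that had been confluent for 2 days, with 3 arrays per group, and day 7 cells had spent 7 days in differentiation medium, with 4 arrays per group. The labels do not say whether replicates came from separate cultures, and the p-values therefore reflect only how far these samples spread, a spread that may be technical. Since each arm received its own virus, an effect of the knockdown cannot be told apart from another lasting difference between the transduced cells.

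Chemokines are small, mostly secreted proteins that bind G protein-coupled receptors and direct the migration of leukocytes. Their classes are named for the spacing of the first cysteines, and many of their genes are induced through NF-kappaB or interferon signalling. Preadipocytes and adipocytes secrete several of them, and in adipose tissue they are known for drawing in monocytes and macrophages.

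The stretches of 220 bases before the annotated transcription starts of 5 ligands are shown because the results turn on them. Cxcl13 and Ccl6 differed between knockdown and control cells, Ccl8 between days, and Cxcl1 and Cxcl10 between replicates at day 7. Sequences and positions are those of RefSeq on GRCm38.p6, read 5′ to 3′ on the strand of the gene: Cxcl13 at chr5:95956719-95956938 on the plus strand, Ccl6 at chr11:83593088-83593307 on the minus strand, Ccl8 at chr11:82114965-82115184 on the plus strand, Cxcl1 at chr5:90891025-90891244 on the plus strand and Cxcl10 at chr5:92348890-92349109 on the minus strand. Capitals mark matches to 1 of 4 motifs searched on both strands. They are the TATA box TATAAA, an NF-kappaB motif (GGG and TTCC with any 3 bases between them), an interferon response element or ISRE (GAAA repeated after any 2 bases) and the nuclear receptor motif DR1 (AGGNCA, any 1 base, AGGTCA).
Cxcl13: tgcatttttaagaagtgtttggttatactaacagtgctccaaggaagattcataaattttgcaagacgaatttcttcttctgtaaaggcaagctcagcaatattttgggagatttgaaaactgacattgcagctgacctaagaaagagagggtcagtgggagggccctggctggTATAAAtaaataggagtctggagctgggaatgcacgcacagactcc
Ccl6: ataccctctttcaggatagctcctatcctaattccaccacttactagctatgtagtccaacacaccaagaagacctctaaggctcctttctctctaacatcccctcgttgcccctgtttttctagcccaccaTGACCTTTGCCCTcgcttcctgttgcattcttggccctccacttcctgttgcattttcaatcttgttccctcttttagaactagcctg
Ccl8: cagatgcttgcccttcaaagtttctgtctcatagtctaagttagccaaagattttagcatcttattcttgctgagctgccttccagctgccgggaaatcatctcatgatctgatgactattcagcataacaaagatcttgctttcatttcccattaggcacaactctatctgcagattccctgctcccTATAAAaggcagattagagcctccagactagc
Cxcl1: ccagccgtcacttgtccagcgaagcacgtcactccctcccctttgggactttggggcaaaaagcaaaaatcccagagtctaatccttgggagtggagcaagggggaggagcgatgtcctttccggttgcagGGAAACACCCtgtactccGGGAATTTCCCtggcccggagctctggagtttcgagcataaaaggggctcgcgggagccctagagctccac
Cxcl10: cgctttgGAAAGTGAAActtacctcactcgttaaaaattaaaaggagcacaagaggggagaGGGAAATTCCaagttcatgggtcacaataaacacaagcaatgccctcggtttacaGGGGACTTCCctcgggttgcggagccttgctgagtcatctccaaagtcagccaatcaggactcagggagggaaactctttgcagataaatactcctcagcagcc
In these stretches Cxcl13 and Ccl8 hold a TATAAA match, and Cxcl1 and Cxcl10 hold NF-kappaB matches. Ccl8, which like Cxcl1 and Cxcl10 was highest in day 7 replicate 3 in both groups, holds no NF-kappaB match. In Cxcl1 the run of capitals nearest the start holds 2 overlapping NF-kappaB matches, GGGAATTTCC and GGAATTTCCC. Cxcl10 also holds an ISRE match, GAAAGTGAAA. The capitals in Ccl6 are a DR1 match, TGACCTTTGCCCT, 88 to 76 bases before the start.

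Of the 32 ligands, 22 matched a promoter in the table, with 23 windows among them. In the 250 bases before the start, 7 ligands held an NF-kappaB match (Ccl1, Ccl20, Ccl9, Cxcl1, Cxcl10, Cxcl2 and Cxcl3), against 4.65% of all 32851 windows. An ISRE match stood in Cxcl10 and Cxcl14, against 2.98% of windows. Ccl6 alone of the 22 held a DR1 match, which 27 windows or 0.0822% held. The TATA box motif TATAAA stood in 9 ligands, against 12.4% of windows, on either strand and at any distance. It lay 6 to 1 bases before the start in Cx3cl1 and 195 to 190 in Cxcl9. A match is a run of letters and was not tested as a binding site.

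A ligand was placed near the bottom of the scale when its mean was at or under the 95th percentile of 72 odorant, vomeronasal and bitter taste receptor genes in each of the 4 groups, that is under 4.31 in control and 4.49 in knockdown cells at day 0 and 4.55 and 4.30 at day 7. The 11 ligands near the bottom were Ccl1, Ccl12, Ccl20, Ccl22, Ccl24, Ccl4, Cxcl14, Cxcl17, Cxcl2, Cxcl3 and Xcl1. Their single array values ran from 1.66 to 4.69, and the files give no detection call, so none of them was called absent. Cxcl17 came closest from below, with a mean of 4.08 ± 0.10 (SD, n = 4) in knockdown cells at day 7, followed by Ccl4 with 4.02 ± 0.28 in the same group. Ccl3, Cxcl9 and Cxcl11 lay above the bottom through knockdown groups only: Ccl3 with a mean of 4.98 ± 0.93 (SD, n = 3) at day 0, Cxcl11 with 4.63 ± 1.28 (SD, n = 3) at day 0 and Cxcl9 with 4.62 ± 0.78 (SD, n = 4) at day 7. Such a member had to be high in a knockdown group to be counted above the bottom. Levels of different genes are not ranked, since probe sets differ in how strongly they bind.

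The Trp53inp2 probe set itself was lower in knockdown cells by 1.17 ± 0.15 (SE) at day 0 and by 1.57 ± 0.13 at day 7 on the log2 scale (limma adjusted p = 0.00205 and 0.000111). Replicates 1 and 2 of each group lay closer together than its other arrays: for the ligands the SD of their difference was 0.15 to 0.35 within a group, against 0.58 to 1.65 for other pairs of arrays. The 7 measured adipocyte markers rose from day 0 to day 7 in both control and knockdown cells, and the mean of these markers lay between 6.58 and 7.93 in the day 0 arrays and between 9.64 and 12.04 in the day 7 arrays. Of 10 macrophage and monocyte markers, 6 lay near the bottom of the scale, among them Adgre1, Ptprc and Itgam, which never exceeded 3.62 on any array. The mean of the 10 lay between 4.73 and 4.78 in control and 4.82 and 4.84 in knockdown arrays at day 0, and between 4.58 and 5.13 in control and 4.39 and 5.08 in knockdown arrays at day 7. None of the 10 passed the limma test between knockdown and control at either day. At an unadjusted p under 0.05, for which no share of all genes was counted, there was 1 at day 0 and 0 at day 7. Fewer cells that make a transcript and less transcript per cell cannot be told apart in these bulk samples.

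**Figure D1:**
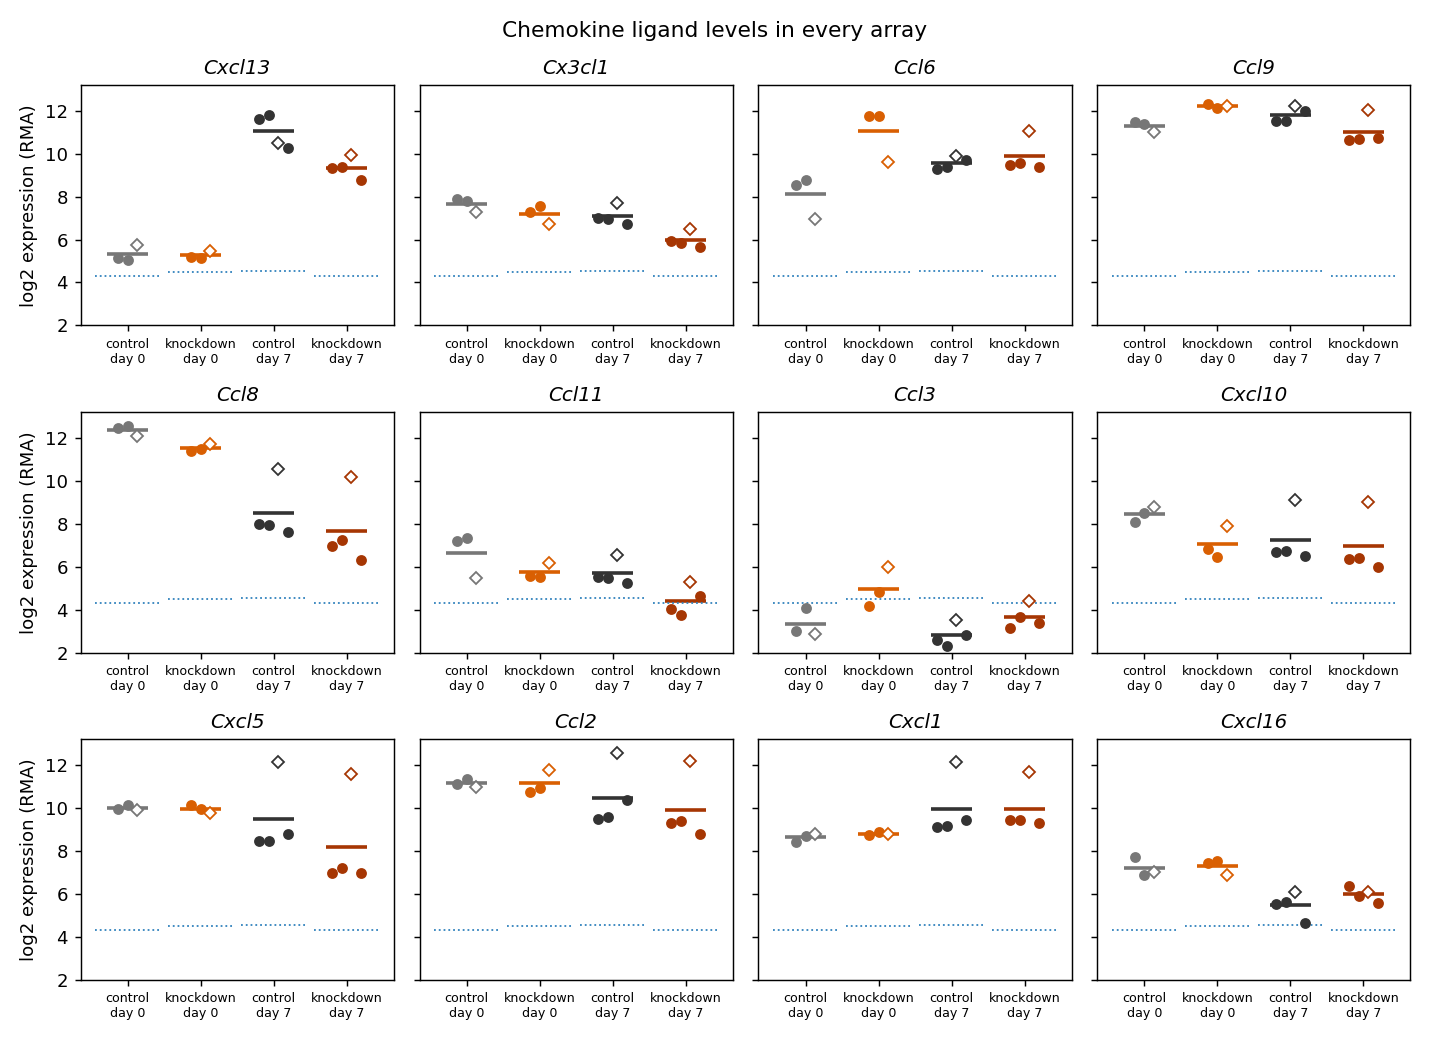
Levels of 12 chemokine ligands on the log2 scale (vertical axis) in each of the 14 arrays, by group. Circles and open diamonds are single arrays, diamonds being replicate 3, bars are group means and dotted lines the level under which a mean counts as near the bottom of the scale; Cxcl13 arrays lie between 5.05 and 5.74 at day 0 and between 8.75 and 11.80 at day 7, and the day 7 diamonds of Ccl8, Cxcl10, Cxcl5, Ccl2 and Cxcl1 lie above the circles of their group.

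In preadipocytes at day 0, Ccl6 was the 1 ligand of 32 that passed the test between knockdown and control, and it was higher in knockdown cells (limma, Benjamini-Hochberg adjusted p under 0.05 over all 18193 genes). Of all genes, 1.8% passed in this contrast, so a share of 1 in 32 is near the background. Ccl6, a CC chemokine of rodents that signals through CCR1, stood at 8.56, 8.77 and 6.97 in control arrays 1, 2 and 3 and at 11.75, 11.76 and 9.63 in knockdown arrays 1, 2 and 3. Every knockdown array lay above every control array, and replicate 3 was the lowest of its group in both. The difference was 2.95 ± 0.62 (SE) on the log2 scale, or 7.70-fold (95% interval 3.05 to 19.4), with a limma adjusted p of 0.0332. The 3 pairs of equal replicate number differed by 3.19, 2.99 and 2.66.

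The Ccl6 call lay close to the threshold. It was lost without control day 0 replicate 1, 2 or 3 (adjusted p = 0.0828, 0.0533 and 0.104), without knockdown day 0 replicate 1 or 2 (0.127 and 0.141) and without replicate 2 of control or knockdown cells at day 7 (0.0512 and 0.0501), while the difference stayed between 2.38 and 3.65. With replicates 1 and 2 averaged it was 2.88 (limma adjusted p = 0.41), and with only the day 0 groups in the fit it was 2.95 (limma adjusted p = 0.127). In that last fit Ccl9 passed in its place, as given with Ccl9. The other Ccl6 probe set gave 3.33 ± 0.70 (limma adjusted p = 0.0264 over all probe sets), although its name ends in _s_at, which on these arrays marks probes shared by more than 1 transcript.

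At day 0, 6 of the 32 ligands had groups that did not overlap, against 22.6% of all genes. Ccl3, Ccl6 and Ccl9 were above the controls, against 6.89% of genes, and Ccl17, Ccl8 and Cxcl10 below, against 15.7%. Ccl3, a ligand of CCR1, stood at 3.00, 4.09 and 2.84 in control arrays and at 4.15, 4.81 and 5.99 in knockdown arrays. The highest control array lay just under the lowest knockdown array, and the control values were at the bottom of the scale. The difference of 1.67 ± 0.48 did not pass the test (limma adjusted p = 0.109).

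Ccl9, a CCR1 ligand like Ccl6, falls outside the rule for ligands described array by array and is given because its values were seen. It stood at 11.46, 11.38 and 11.01 in control arrays and at 12.31, 12.13 and 12.23 in knockdown arrays at day 0. All knockdown arrays were above all controls, by 0.94 ± 0.33 on average (limma adjusted p = 0.182), and with only the day 0 groups in the fit the difference was 0.94 ± 0.14 and passed (0.0398). Its other probe set was higher in knockdown cells by 2.21 ± 0.53 (limma adjusted p = 0.0463 over all probe sets), so the probe sets differ in the call and in size.

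Cxcl10, an interferon-inducible ligand of CXCR3, stood at 8.06, 8.49 and 8.79 in control arrays and at 6.85, 6.47 and 7.89 in knockdown arrays at day 0. The groups did not overlap, replicate 3 was the highest of its group in both, and the difference of -1.38 ± 0.79 did not pass (limma adjusted p = 0.446). Ccl8, a member of the monocyte chemotactic protein family, stood at 12.44, 12.57 and 12.09 in control and 11.39, 11.46 and 11.72 in knockdown arrays, a difference of -0.84 ± 0.88 (limma adjusted p = 0.724). Its groups did not overlap either, and without both day 7 replicate 3 arrays, which share the fit, the SE was 0.22 around the same difference (limma adjusted p = 0.0636).

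Ccl11, the eosinophil chemoattractant eotaxin, stood at 7.18, 7.31 and 5.48 in control and 5.56, 5.52 and 6.18 in knockdown arrays at day 0. Control replicate 3 lay below all knockdown arrays, and the difference of -0.90 ± 0.51 did not pass (limma adjusted p = 0.435). The neutrophil attractant Cxcl5 stood at 9.93, 10.13 and 9.92 in control and 10.13, 9.98 and 9.76 in knockdown arrays, and these ranges overlap. Its difference was -0.04, with a 95% interval from -2.54 to 2.47. Cx3cl1 and Cxcl13, whose array values are given with day 7, differed at day 0 by -0.46 ± 0.29 and -0.04 ± 0.39 (limma adjusted p = 0.496 and 0.979). Over the 32 ligands the median difference at day 0 was -0.03, beside -0.05 over all genes.

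Arrays of equal replicate number deviated together, so the replicate number within each day was also fitted as a block, an alternative chosen after seeing the data. With this block 4 ligands passed at day 0, beside 4.64% of all genes: Ccl6 (limma adjusted p = 0.0036) and Ccl9 (0.0392) higher, Cxcl10 (0.012) and Cx3cl1 (0.0431) lower in knockdown cells. With both day 7 replicate 3 arrays left out and no block, 3 ligands passed at day 0, beside 3.79% of genes: Ccl6 (0.0197) and Ccl9 (0.00829) higher and Cxcl10 (0.0371) lower. That alternative leaves the day 0 arrays as they are and changes only the spread used in the test. A block by replicate number over all arrays, which does not separate the days, gave 1 ligand at day 0, Ccl6 (limma adjusted p = 0.0482), beside 3.14% of genes.

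After 7 days in differentiation medium, 2 ligands passed the test, both lower in knockdown cells: Cxcl13 and Cx3cl1. Of all genes 6.58% passed, and 3.57% passed as lower, so 2 in 32 is near the background. Cxcl13, which attracts B cells through CXCR5, stood at 11.62, 11.80, 10.52 and 10.28 in control arrays 1 to 4 and at 9.31, 9.37, 9.94 and 8.75 in knockdown arrays 1 to 4. Every knockdown array lay below every control array, and the narrowest pair was replicate 3. The difference was -1.71 ± 0.34 on the log2 scale, or 3.27-fold lower, with a limma adjusted p of 0.0139.

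The Cxcl13 call held without each array in turn, with limma adjusted p from 0.00486 to 0.0464, and was lost with replicates 1 and 2 averaged (-1.49, limma adjusted p = 0.186) and with only the day 7 groups in the fit (-1.71, 0.0654). The other Cxcl13 probe set was lower by 1.46 ± 0.34 (limma adjusted p = 0.0315 over all probe sets). At day 0 the 2 groups overlapped, at 5.13, 5.05 and 5.74 in control and 5.21, 5.13 and 5.46 in knockdown arrays. The 95% interval of the day 0 difference ran from -0.89 to 0.81. The other probe set gave 0.84 ± 0.39 at day 0 and did not pass (limma adjusted p = 0.313 over all probe sets).

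Cx3cl1, or fractalkine, is a membrane-anchored ligand that is shed from the cell surface and binds CX3CR1. At day 7 it stood at 7.02, 6.98, 7.72 and 6.73 in control arrays and at 5.94, 5.85, 6.48 and 5.65 in knockdown arrays. Again no knockdown array reached a control array, and replicate 3 was the highest of its group in both. The difference was -1.13 ± 0.25, or 2.19-fold lower (limma adjusted p = 0.0225), with pairs that differed by -1.08, -1.13, -1.24 and -1.07. At day 0 Cx3cl1 stood at 7.87, 7.77 and 7.28 in control and 7.27, 7.55 and 6.73 in knockdown arrays, lower in each pair but with overlapping groups.

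The Cx3cl1 call at day 7 was lost without control replicate 3 (-0.93, limma adjusted p = 0.052) and without knockdown replicate 1 (-1.12, 0.069), 2 (-1.08, 0.0751) or 4 (-1.02, 0.0663). It was also lost with replicates 1 and 2 averaged (-1.14, limma adjusted p = 0.191) and with only the day 7 groups in the fit (-1.13, 0.0602). The 3 other Cx3cl1 probe sets gave -0.34, 0.05 and -0.40 and did not pass (limma adjusted p = 0.198, 0.825 and 0.242), so the call rests on 1 of 4 probe sets. The probe sets that gave 0.05 and -0.40 lay low on the scale, with means of 2.84 and 2.73.

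Ccl6, the ligand called at day 0, did not pass at day 7. It stood at 9.28, 9.37, 9.91 and 9.68 in control and 9.49, 9.57, 11.07 and 9.39 in knockdown arrays, overlapping groups with a difference of 0.32 ± 0.53 (limma adjusted p = 0.781). Ccl11 stood at 5.54, 5.46, 6.56 and 5.26 in control and 4.02, 3.76, 5.30 and 4.62 in knockdown arrays. Only knockdown replicate 3 reached the lowest control, and the difference of -1.28 ± 0.44 did not pass (limma adjusted p = 0.0988). Without knockdown replicate 3 it was -1.57 and passed (limma adjusted p = 0.0327).

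Cxcl5 stood at 8.47, 8.48, 12.14 and 8.80 in control and 6.97, 7.20, 11.60 and 6.99 in knockdown arrays at day 7. Both replicate 3 arrays were far above the rest, and in the other 3 pairs the knockdown array lay below every control array. With all arrays the difference was -1.28 ± 1.00 (limma adjusted p = 0.495), with both replicate 3 arrays left out it was -1.53 ± 0.13 (0.000193), and with the block it was -1.28 ± 0.19 (0.00687). Ccl8 had the same shape, at 7.98, 7.96, 10.55 and 7.60 in control and 6.97, 7.22, 10.18 and 6.32 in knockdown arrays. Its difference was -0.85 ± 0.76 with all arrays (limma adjusted p = 0.561) and -1.01 ± 0.22 without both replicate 3 arrays (0.0152).

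Ccl9 stood at 11.54, 11.51, 12.23 and 12.003 in control and 10.62, 10.66, 12.05 and 10.72 in knockdown arrays at day 7. Knockdown arrays 1, 2 and 4 lay below all controls, and replicate 3 lay among them. The difference was -0.81 ± 0.28 with all arrays (limma adjusted p = 0.105) and -1.02 ± 0.15 without both replicate 3 arrays (0.00248). Cxcl10 stood at 6.67, 6.72, 9.09 and 6.50 in control and 6.34, 6.41, 9.02 and 6.004 in knockdown arrays, a difference of -0.30 ± 0.68 (limma adjusted p = 0.848). Ccl3 stood at 2.57, 2.31, 3.50 and 2.83 in control and 3.17, 3.66, 4.39 and 3.38 in knockdown arrays, low on the scale with a difference of 0.85 ± 0.42 (limma adjusted p = 0.246).

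Within pairs of equal replicate number at day 7, 13 of the 32 ligands were lower in the knockdown array of all 4 pairs, against 19.7% of all genes, and 1, Ccl3, was higher in all 4, against 19.4%. The 13 were Ccl11, Ccl17, Ccl2, Ccl24, Ccl5, Ccl7, Ccl8, Ccl9, Cx3cl1, Cxcl10, Cxcl12, Cxcl13 and Cxcl5. At day 0, 6 ligands were lower in all 3 pairs, against 28% of genes, and 7 were higher, against 15%. The groups themselves did not overlap for 2 ligands at day 7, Cx3cl1 and Cxcl13, against 13% of genes. Both were lower, against 6.96%, and none was higher, against 6.02%. The median difference over the 32 ligands at day 7 was -0.15, beside -0.02 over all genes.

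Markers of the cells' own state were also compared between knockdown and control cells. At day 7, where 6.58% of all genes passed, 6 preadipocyte and fibroblast markers were compared. Pdgfra (-0.49 ± 0.13, limma adjusted p = 0.0436) and Col3a1 (-0.35 ± 0.07, 0.0134) were lower in knockdown cells. Of the 6, 5 had an unadjusted p under 0.05, and the median difference was -0.45. The mean of the 6 lay between 11.98 and 12.35 in control and between 11.47 and 12.12 in knockdown arrays. None of 7 adipocyte markers passed at day 7, while 4 had an unadjusted p under 0.05 and the median difference was 1.22. Their mean lay between 9.64 and 11.31 in control and between 10.77 and 12.04 in knockdown arrays. At day 0 no marker of either list passed, beside 1.8% of all genes. At an unadjusted p under 0.05 there were 0 of 6 and 2 of 7, and the median differences were -0.06 and 0.44. The share of all genes at the unadjusted threshold was not counted for either day. The part of these markers in the ligand differences was not tested.

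With the replicate number within day as a block, 7 ligands passed at day 7, all lower in knockdown cells, beside 14.7% of all genes in either direction and 7.2% lower: Ccl17 (limma adjusted p = 0.0374), Ccl8 (0.018), Ccl9 (0.0201), Cx3cl1 (0.00208), Cxcl12 (0.0415), Cxcl13 (0.00932) and Cxcl5 (0.00687). With both day 7 replicate 3 arrays left out 7 also passed, all lower, beside 12% of genes in either direction and 6.68% lower, and these were Ccl7 (0.0328) in place of Ccl17 with the other 6. None of the 32 passed as higher at day 7 in either setting. In the fit with all arrays none was higher at an unadjusted p under 0.05, and 6 were lower. The share of all genes at that unadjusted threshold was not counted, so these counts cannot be set against a background. The block over all arrays gave Cx3cl1 (limma adjusted p = 0.0236) and Cxcl13 (0.0101), beside 10.2% of genes in either direction and 5.02% lower. Without knockdown replicate 3 alone, 6 ligands passed, beside 15.9% of genes: Ccl11, Ccl9, Cx3cl1, Cxcl12, Cxcl13 and Cxcl5.

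The remaining ligands above the bottom were Ccl2, Ccl5, Ccl7, Ccl17, Ccl25, Ccl28, Cxcl1, Cxcl9, Cxcl11, Cxcl12, Cxcl15 and Cxcl16. None of them passed at either day with all arrays, all genes, the probe sets used here and no block. Ccl17, a ligand of CCR4, had means of 7.06 ± 0.38 in control and 6.66 ± 0.17 in knockdown cells at day 7 (SD, n = 4), a difference of -0.40 ± 0.16 (limma adjusted p = 0.166). Ccl25, a ligand of CCR9, differed by -0.45 ± 0.21 at day 0 and 0.26 ± 0.18 at day 7 (limma adjusted p = 0.323 and 0.419). Ccl5 stood at 7.16, 7.19 and 9.13 in control and 6.96, 7.06 and 7.34 in knockdown arrays at day 0, and control replicate 3 lay well above the rest.

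Cxcl12, the ligand of CXCR4 and ACKR3 known for holding progenitor cells in place, had means of 13.31 ± 0.11 in control and 12.95 ± 0.25 in knockdown cells at day 7 (SD, n = 4), a difference of -0.36 ± 0.11 (limma adjusted p = 0.076). Its values lie near the top of the scale. A dimmer Cxcl12 probe set, with a mean of 11.64, was lower in knockdown cells by 1.14 ± 0.23 and passed (limma adjusted p = 0.0162 over all probe sets). The dimmest one, at 4.55, gave -0.10 ± 0.17 (limma adjusted p = 0.808).

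**Figure D2:**
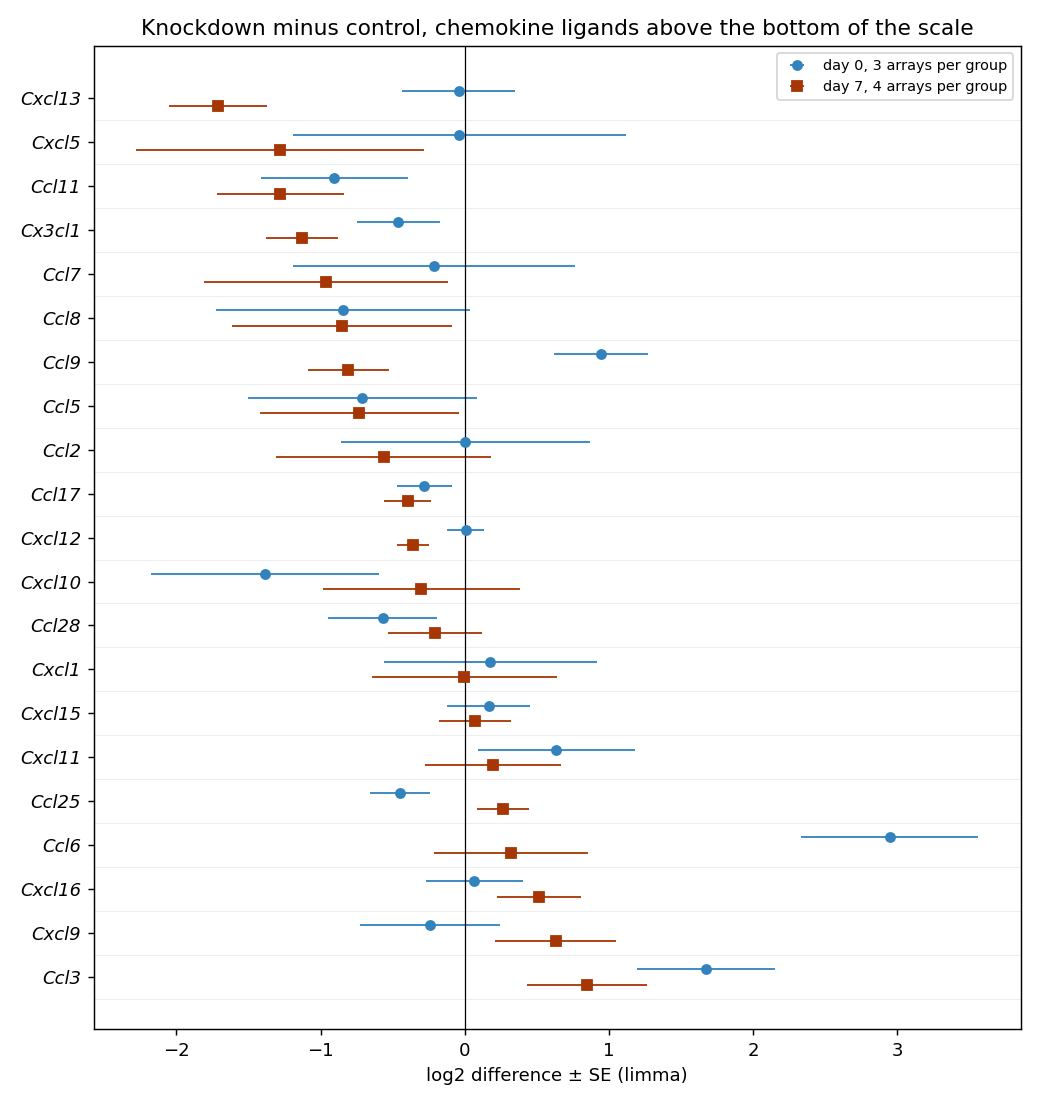
Knockdown minus control differences on the log2 scale (horizontal axis, limma estimate ± SE) for the 21 ligands above the bottom of the scale, with circles for day 0 and squares for day 7. Ccl6 has the largest positive day 0 value, 2.95, and Cxcl13 the largest negative day 7 value, -1.71; Ccl9 lies above 0 at day 0 and below 0 at day 7, and the wide bars at Cxcl5, Ccl7, Ccl8 and Ccl2 go with the spread of the day 7 arrays.

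The knockdown effects at the 2 days were compared by their difference. None of the 32 ligands passed this test with limma, beside 0.022% of all genes. At an unadjusted p under 0.05 there were 4: Ccl25 higher and Ccl6, Ccl9 and Cxcl13 lower at day 7 than at day 0. The 0.022% is for adjusted p, and the share of all genes at the unadjusted threshold was not counted. Ccl6 had a difference of -2.63 ± 0.81 (limma adjusted p = 0.212). Cxcl13 had -1.67 ± 0.52 (limma adjusted p = 0.213). The difference of Ccl9 was -1.75 ± 0.43 (limma adjusted p = 0.134).

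Ccl9 was higher in knockdown cells in each of the 3 pairs at day 0, by 0.75 to 1.22, and lower in each of the 4 pairs at day 7, by -0.18 to -1.28. With the block within day the Ccl9 and Ccl6 differences passed (limma adjusted p = 0.034 and 0.0277), beside 1.08% of genes. With the block over all arrays none passed, beside 0.143% of genes. With both day 7 replicate 3 arrays left out Ccl9 (-1.96 ± 0.21, limma adjusted p = 0.00407) and Cxcl5 (-1.49 ± 0.18, 0.00827) passed, beside 1.46% of genes. Leaving out 1 array gave at most 1 ligand: Ccl6 without knockdown day 0 replicate 3 (-3.33, limma adjusted p = 0.0446), beside 1.2% of genes, or Ccl9 without knockdown day 7 replicate 3 (-2.10, 0.0138), beside 1.74%.

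Between day 0 and day 7 the ligands moved in both directions. In control cells Cxcl13 rose and Ccl8 and Cxcl16 fell, which makes 3 of 32, where 22.9% of all genes passed. In knockdown cells 9 of 32 passed, where 35.8% of all genes did: Cxcl13 and Cxcl9 rose, and Ccl11, Ccl3, Ccl8, Ccl9, Cx3cl1, Cxcl12 and Cxcl16 fell. These contrasts share their arrays with the knockdown contrasts, and their values are given side by side without a test between them.

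Cxcl13 rose by 5.74 ± 0.37 (SE) in control cells, or 53.6-fold, and by 4.07 ± 0.37 in knockdown cells, or 16.9-fold (limma adjusted p = 2.54e-06 and 4.65e-06). Its day 0 values lie close above the bottom of the scale, where array values are compressed, and these folds may be understated. The lowest day 7 array, at 8.75, lay far above the highest day 0 array, at 5.74. The other Cxcl13 probe set rose by 4.36 and 2.07 (limma adjusted p = 1.26e-05 and 0.000739).

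Ccl8 fell by 3.84 ± 0.82 in control and by 3.85 ± 0.82 in knockdown cells, or 14.4-fold in both (limma adjusted p = 0.00485 and 0.00246). Replicate 3 was the highest day 7 array in both, and without both replicate 3 arrays the differences were -4.52 ± 0.22 and -4.69 ± 0.22. With replicates 1 and 2 averaged they were -3.59 and -3.71 and did not pass (limma adjusted p = 0.0992 and 0.0514). Cxcl16, a transmembrane ligand of CXCR6 that also acts as a scavenger receptor, fell by 1.73 ± 0.32 in control and by 1.28 ± 0.32 in knockdown cells (limma adjusted p = 0.00175 and 0.00602). Its other probe set gave -0.42, which did not pass, in control cells and -0.98 in knockdown cells (limma adjusted p = 0.0595 and 0.000184). The Cxcl16 probe set used here ends in _s_at and that of Cxcl1 in _x_at, so both may also bind other transcripts.

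Among the ligands that passed in knockdown cells only, the difference in control cells is given beside each. Cx3cl1 fell by 1.20 ± 0.27 in knockdown cells (limma adjusted p = 0.00335), beside -0.53 ± 0.27 in control cells (0.192). Ccl9 fell by 1.21 ± 0.31 (limma adjusted p = 0.00714), beside 0.54 ± 0.31 (0.253). Cxcl12 fell by 0.58 ± 0.12 (limma adjusted p = 0.00213), beside -0.22 ± 0.12 (0.242). The test of each of these pairs of values against each other is the one on the knockdown effects above, which none of them passed with all arrays and no block.

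The calls of Ccl11, Ccl3 and Cxcl9 in knockdown cells were weaker. Ccl11 fell by 1.33 ± 0.48 (limma adjusted p = 0.0445), a call lost with the replicate number as a block over all arrays (-1.29, 0.0886) and without each of 9 of the 14 arrays, with adjusted p up to 0.149. Ccl3 fell by 1.33 ± 0.45 (limma adjusted p = 0.0341), a call lost without knockdown day 0 replicate 2 (-1.42, 0.0628) or 3 (-0.83, 0.172) and without knockdown day 7 replicate 1 (-1.17, 0.0899), 2 (-1.34, 0.0634) or 4 (-1.25, 0.0755). Cxcl9, an interferon-inducible ligand of CXCR3, rose by 1.44 ± 0.45 from a mean of 3.18 to 4.62 (limma adjusted p = 0.0239), a call lost without knockdown day 0 replicate 1 (1.31, 0.0861) or 3 (1.28, 0.0852) and day 7 replicate 1 (1.23, 0.0694) or 2 (1.22, 0.0698). Its other probe set gave -0.24 ± 0.28 (limma adjusted p = 0.566).

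With the block over all arrays 4 ligands passed between days in control cells, beside 25.2% of genes, and 10 in knockdown cells, beside 38.8%. Without both day 7 replicate 3 arrays, more ligands passed between days. In control cells 11 did, beside 26.7% of all genes, with Cxcl1 and Cxcl13 up and Ccl17, Ccl2, Ccl25, Ccl8, Cx3cl1, Cxcl10, Cxcl12, Cxcl16 and Cxcl5 down. In knockdown cells 15 did, beside 39.4% of genes, with Cxcl1, Cxcl13 and Cxcl9 up and 12 down. Among the ligands added were Cxcl5 (-1.41 ± 0.13 in control and -2.90 ± 0.13 in knockdown cells), Ccl2 (-1.36 ± 0.30 and -1.998 ± 0.30) and, in control cells, Cxcl10 (-1.82 ± 0.31). Ccl2 is the main attractant of monocytes through CCR2. Cxcl1, a neutrophil attractant and ligand of CXCR2, was higher at day 7 by 0.61 ± 0.11 in control and 0.57 ± 0.11 in knockdown cells in this setting (limma adjusted p = 0.00251 and 0.00184).

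**Figure D3:**
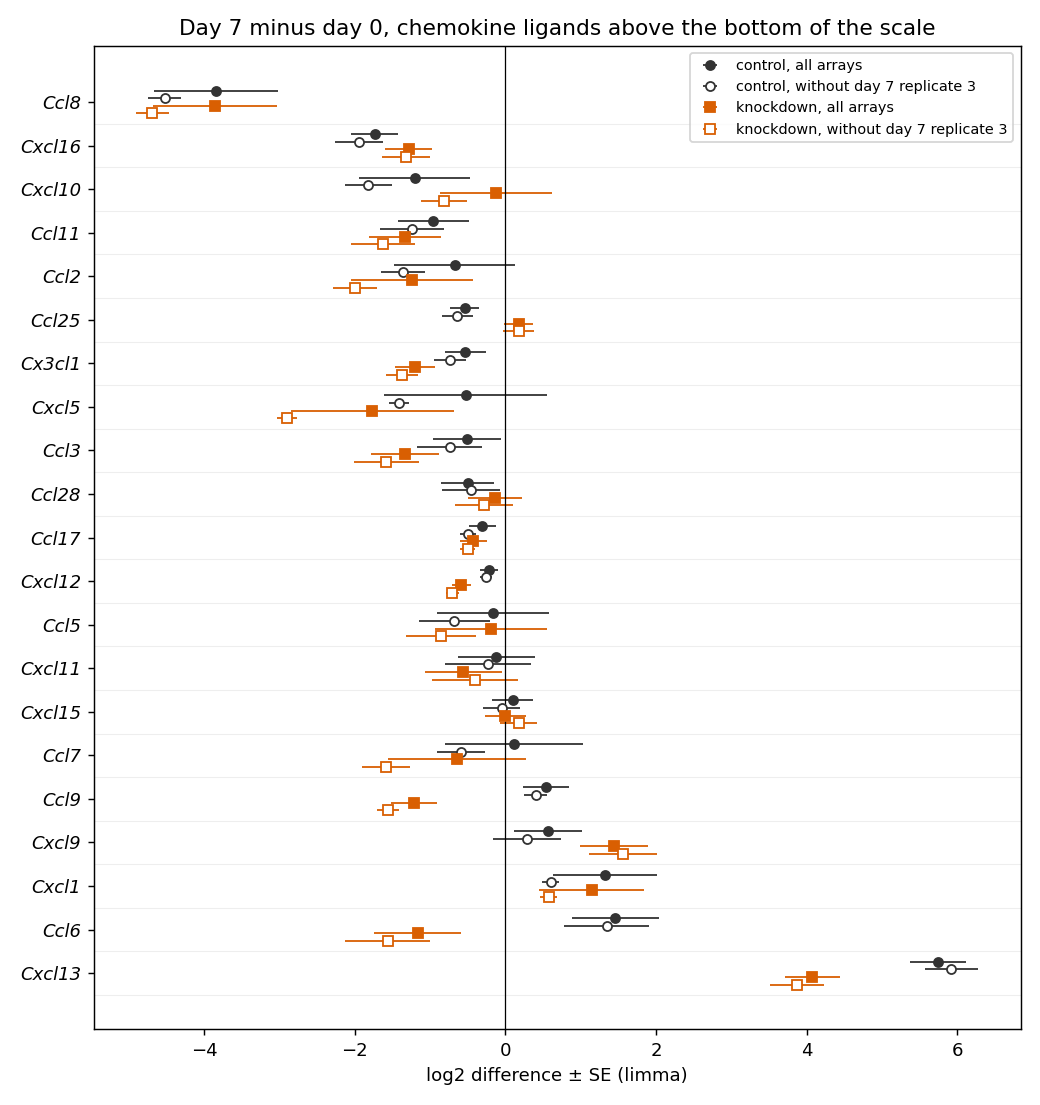
Day 7 minus day 0 differences on the log2 scale (horizontal axis, limma estimate ± SE) for the 21 ligands above the bottom of the scale, in control cells (circles) and knockdown cells (squares), with all arrays (filled) and without both day 7 replicate 3 arrays (open). Cxcl13 lies far to the right at 5.74 and 4.07 and Ccl8 far to the left at -3.84 and -3.85, and the open symbols of Cxcl5, Ccl2 and Cxcl10 have narrower bars than the filled ones.

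Replicate 3 at day 7 stood apart from the other day 7 arrays in the level of its chemokines. In 7 of 32 ligands it was the highest array of its group by at least 1 on the log2 scale in both control and knockdown cells, against 0.912% of all genes, or 166. The 7 were Ccl2, Ccl5, Ccl7, Ccl8, Cxcl1, Cxcl10 and Cxcl5. It was the highest by any amount in both groups in 17 ligands, against 15.3% of genes, and the lowest in both groups in none, against 17.9% by any amount and 0.055% by at least 1. Replicate 4 was the highest by 1 in both groups for none of the ligands, against 0.231% of genes. Replicates 1 and 2 were so for 0 of 18193 genes, and since they lay close together they cannot serve as a comparison.

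The gap between replicate 3 and the next highest array was 3.34 in control and 4.39 in knockdown cells for Cxcl5. It was 2.70 and 2.22 for Cxcl1. Ccl2 stood at 9.47, 9.56, 12.55 and 10.35 in control and 9.31, 9.39, 12.20 and 8.79 in knockdown arrays, gaps of 2.20 and 2.81. Ccl7, a monocyte attractant encoded beside Ccl2, had gaps of 2.14 and 3.42, and Ccl5, an attractant of T cells and monocytes, had gaps of 1.99 and 1.96. For Cxcl13 the arms differed: control replicate 3 lay 1.28 below the highest control array, and knockdown replicate 3 was the highest of its group by 0.57.

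**Figure D4:**
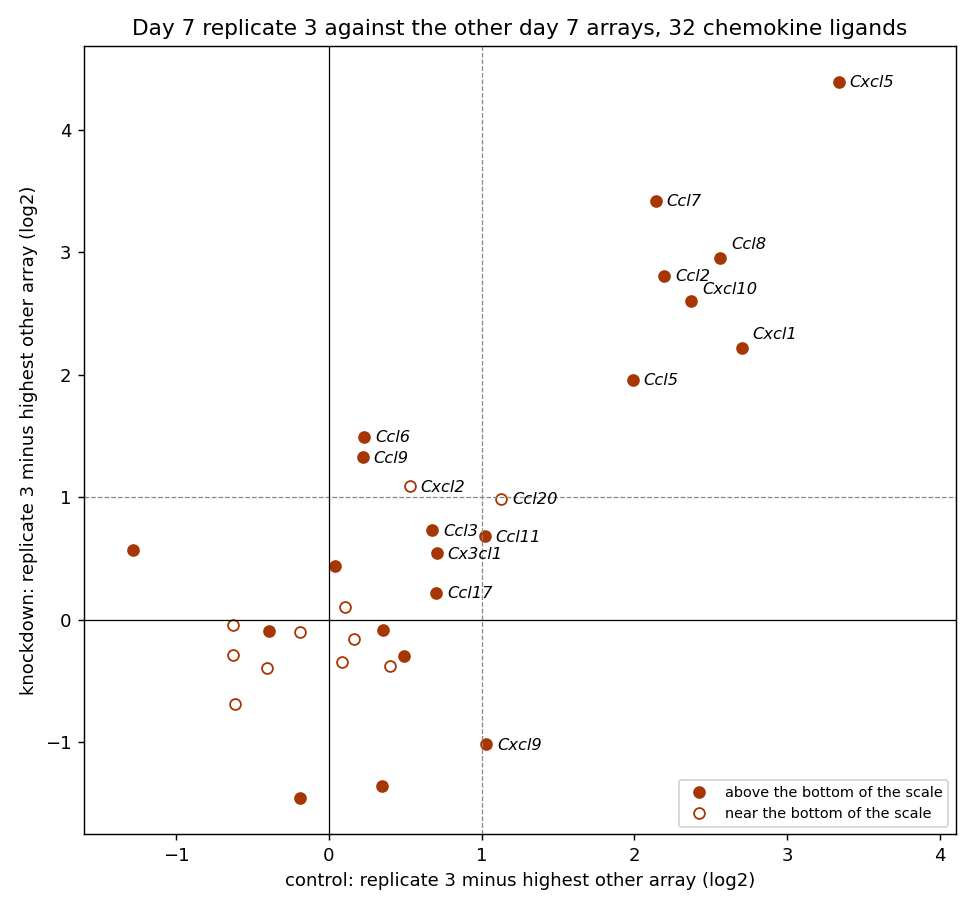
For each of the 32 ligands, the log2 level of day 7 replicate 3 minus the highest of the other 3 day 7 arrays, in control cells (horizontal axis) and knockdown cells (vertical axis). Filled points are above and open points near the bottom of the scale, dashed lines mark a gap of 1, and 7 ligands lie past both lines, with Cxcl5 farthest at 3.34 and 4.39.

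Genes of other lists were set beside this pattern. Of all genes, 15.3% were highest in replicate 3 in both groups, and 0.912% by at least 1. Of 15 other cytokines, Il6, Il33 and Csf2 were also highest in replicate 3 by at least 1 in both groups, Il6 at 8.65 against at most 6.52 in the other control arrays and 8.39 against at most 6.37 in the other knockdown arrays. Of 20 genes of NF-kappaB and toll-like or interleukin receptor signalling, 12 were highest in replicate 3 in both groups, and Tlr2 by at least 1. Of 12 interferon pathway genes 9 were highest there in both groups, none by 1. Of 7 enzymes that cut chemokines 4 were highest there in both groups, with Mmp3 by at least 1. Of 21 chemokine receptors 1 was, Ackr3, by at least 1. Of 6 preadipocyte and fibroblast markers 3 were highest there in both groups, and of 5 lymphoid and 5 endothelial markers 0. Of 10 macrophage and monocyte markers 4 were highest there in both groups, Cd14 and Mrc1 by at least 1. The mean of the 10 was 5.13 in control and 5.08 in knockdown replicate 3, against at most 4.77 and 4.61 in the other arrays. Other markers of this list, Adgre1, Ptprc and Itgam, were near the bottom of the scale in replicate 3, at 2.52, 3.25 and 2.67 in control and 2.63, 3.50 and 2.26 in knockdown cells.

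Of 7 adipocyte markers 6 were lowest in replicate 3 in both groups, against 17.9% of all genes. The mean of the 7 was 9.64 in control and 10.77 in knockdown replicate 3, against at least 9.97 and 11.82 in the other arrays. The 3′ minus 5′ signal of beta-actin control probe sets, which rises as RNA is degraded or copied incompletely, was lowest in replicate 3 at day 7, at 2.82 in control and 2.70 in knockdown cells, against group means of 3.25 and 3.04. It was lowest in replicate 3 at day 0 too, at 3.32 in control and 2.74 in knockdown cells. The same measure for Gapdh was lowest in replicate 3 at day 7 in control (1.24) and knockdown cells (1.35), and at day 0 in knockdown cells (1.59). At day 0 the beta-actin measure averaged 3.54 ± 0.22 in control and 2.98 ± 0.25 in knockdown cells (SD, n = 3), and that of Gapdh 2.18 ± 0.22 and 1.77 ± 0.16, so both were lower on average in knockdown cells. The labels name no batch for replicate 3. The part that any of these measures has in the chemokine levels was not tested.

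Of 23 chemokine receptors, typical and atypical, 21 were measured and 16 lay near the bottom of the scale, among them Ccr2, Cxcr2, Cxcr3 and Cxcr5. Ccr1, the receptor of Ccl6 and Ccl9, was higher in knockdown cells at day 7 by 0.90 ± 0.23 (limma adjusted p = 0.0404), at 4.08, 4.20, 4.48 and 4.32 in control and 5.11, 5.04, 5.21 and 5.30 in knockdown arrays. Ccrl2, an atypical receptor, was lower in knockdown cells at day 0 by 1.19 ± 0.20 (limma adjusted p = 0.0127), at 4.47, 4.27 and 3.94 in control and 2.80, 3.41 and 2.89 in knockdown arrays. At day 7 the Ccr1 mean was above the bottom in knockdown cells and under it in control cells, and Ccrl2 lay near the bottom in all groups. No other receptor passed at either day. Ackr4, a scavenger of chemokines such as Ccl25, stood between 11.42 and 12.06 in all arrays.

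Genes of other pathway lists were tested between knockdown and control in the same fit, in which 1.8% of all genes passed at day 0 and 6.58% at day 7. These shares are for adjusted p. The share of all genes at an unadjusted p under 0.05 was not counted, so the unadjusted counts below have no background beside them. Of 20 NF-kappaB pathway genes none passed at either day with limma, and 3 at day 0 and 6 at day 7 had an unadjusted p under 0.05. Of 15 other cytokines none passed either, with 0 and 3 at an unadjusted p under 0.05. Of 12 interferon pathway genes none passed at day 0 (2 at an unadjusted p under 0.05), and at day 7 Ifngr1, a chain of the interferon gamma receptor, was higher by 0.70 ± 0.16 (limma adjusted p = 0.0243) and the kinase Tyk2 lower by 0.48 ± 0.13 (0.0426) in knockdown cells. Of 7 enzymes that cut chemokines none passed at day 0 (0 at an unadjusted p under 0.05), and at day 7 Mmp2 (-0.34 ± 0.08, limma adjusted p = 0.0336) and Mmp14 (-0.64 ± 0.16, 0.0309) were lower in knockdown cells. Between days, 6 of 12 interferon pathway genes fell and 1 rose in control cells, and 9 fell and 1 rose in knockdown cells, where 22.9% and 35.8% of all genes passed in either direction.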

How the data were processed

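RNA of 14 samples was amplified, labelled with biotin and hybridised to Affymetrix mouse arrays, 1 array per sample. The deposited values are log2 intensities computed by the authors with RMA in the affy package, per the submitters' processing notes; their versions were not given in the sources used here. RMA fits each probe set over all arrays and forces their distributions to be equal, so a shift common to all genes is not visible. The table holds 45101 probe sets, of which 34945 carry 1 gene symbol, 932 several and 9160 none; 64 are control probe sets. Those with 1 symbol gave 18193 genes, 18031 of them found in the RefSeq gene table. Array medians lay between 5.44 and 5.57.

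A model of 4 group means was fitted over all 14 arrays in R 4.3.3 using lmFit and eBayes of limma 3.58.1. Benjamini-Hochberg adjustment was made over all genes for each of 5 contrasts. The fit was tried on simulated data in which the arrays were independent. Since the arrays here deviate together, that trial does not show how the p-values behave in these data. Errors of differences are SE. Tables were made with pandas 2.3.3 in Python 3.11.15. The members, gene lists and tests were chosen with earlier results of these data known. Ligands were described by array when they passed in a knockdown contrast or in the difference of the 2, when they were Cxcl13, Ccl6 or Ccl8, or when they lay above the bottom of the scale with a knockdown difference of at least 1 at either day. Array values of Ccl9, of Ccl5 at day 0 and of Ccl2 at day 7 are given outside this rule.

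Arrays of the same replicate number in control and knockdown cells deviated together: the correlation of their deviations from the group means was 0.210, 0.187 and 0.331 at day 0 and 0.434, 0.478, 0.590 and 0.389 at day 7. The highest correlation with an array of another number was lower, apart from day 7 replicates 1 and 2, for which it was 0.467 and 0.487. The numbers come from the labels and were taken to pair the samples. Alternatives were a block by replicate number, each array left out, both day 7 replicate 3 arrays left out, replicates 1 and 2 averaged, only the groups compared, the probe set of the largest interquartile range, and a filter on the dimmest 40% of genes. Quantile normalization of the gene values and a shift of the arrays to 1 median were also fitted, and their calls are not listed. The block by replicate number within each day was added after seeing the data.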

Additional observations from a re-analysis of the deposited data

Results flagged for a closer look

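In groups of 4 arrays, the gap between the highest or lowest array and the nearest other array was set against the group's whole range. The share was above Dixon's 95% critical value for 4 arrays in 11 of 42 groups of ligands above the bottom of the scale, or 26.2%, against 8.15% of the day 7 groups of all genes above the bottom. Chance gives about 1 in 20 for independent arrays, while in each group replicates 1 and 2 were unusually alike. In each of the 11 the outlying array was the highest and was day 7 replicate 3, which was so for 2.65% of the groups of all genes. In control cells the share was 0.951 for Ccl5, 0.915 for Cxcl10, 0.909 for Cxcl5, 0.905 for Cxcl1, 0.869 for Ccl8 and 0.847 for Ccl17. In knockdown cells it was 0.951 for Cxcl5, 0.936 for Cxcl1, 0.927 for Ccl9, 0.894 for Ccl6 and 0.864 for Cxcl10. The ligands were measured on the same arrays, so these shares are not independent of each other.

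Ccl9 was higher in the knockdown array of every pair at day 0 and lower in every pair at day 7. The difference between the effects was -1.75 on the log2 scale, and its test did not pass with all arrays (limma adjusted p = 0.134).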

How the results depend on the processing

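Over the ligands and contrasts called in any setting, the sign of the difference was the same in the fits by alternative setting. Other probe sets of the same gene did not all share it. Another Cxcl9 probe set gave -0.24 for the rise of 1.44, and a Cx3cl1 probe set gave 0.05 for the day 7 knockdown difference of -1.13. With replicates 1 and 2 averaged, 0 ligands passed at day 0 in place of 1 (0.132% of all genes), 0 at day 7 in place of 2 (0.352%), and 1 between days in knockdown cells in place of 9 (22.5%). With both day 7 replicate 3 arrays left out, 3 passed at day 0, 7 at day 7, 2 in the difference of the knockdown effects in place of 0, and 11 in control and 15 in knockdown cells between days. With only the groups compared, Ccl9 passed at day 0 in place of Ccl6, and 0 passed at day 7 (1.83% of genes) and 6 between days in control cells in place of 3 (20.6%). With the probe set of the largest interquartile range, 2 passed at day 0, Ccl6 and Ccl9 (2.31%). At day 7 Cxcl12 passed as lower in knockdown cells, with Cx3cl1 and Cxcl13, in that setting and with the filter on dim genes. Between days in control cells the former added Ccl6 and the latter Ccl25. The shares of all genes for these added calls are not given. With the replicate block within day, added after seeing the data, 4 passed at day 0, 7 at day 7 and 2 in the difference. With the planned replicate block over all arrays, the paired fit gave 1 at day 0 (Ccl6, limma adjusted p = 0.0482), 2 at day 7 and 0 in the difference, and changed the between-day calls of Cxcl3 in control cells and of Ccl11, Ccl20 and Cxcl2 in knockdown cells.

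Leaving out 1 array gave 0 to 2 ligands at day 0, 1 to 6 at day 7, 0 to 1 in the difference, and 3 to 6 in control and 6 to 12 in knockdown cells between days, where the calls over all genes ran from 101 to 631, 369 to 2885, 1 to 317, 3009 to 4543 and 5462 to 6894. Over all genes the calls at day 0 were 328, with 572 under the replicate block, 844 within day, 690 without both replicate 3 arrays, 24 with averaging, 498 with the filter on dim genes and 207 with only the groups compared. At day 7 they were 1197, with 1850, 2680, 2188, 64, 1831 and 333 in the same order. In the difference they were 4, with 26, 196, 266, 0 and 57 in the order up to the filter, and 12 with the probe set of the largest interquartile range. Between days in control cells 4162 passed, and 1584 with averaging. By the 40th percentile of all genes, 16 ligands in place of 11 lay near the bottom of the scale. Array values have no counts, so the number of arrays limits the precision.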
